A study of Mus musculus with 9 samples.

Results

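Marker genes of liver macrophages, 10 in all, were followed through thioacetamide injury of the mouse liver and its spontaneous reversal. They were taken by gene symbol, 10 of the 21873 genes in the expression table. The rule used no measured value, but the genes were chosen with earlier results of these data known. Of these, 6 mark the resident Kupffer cell (Clec4f, Timd4, Vsig4, Cd5l, Marco and Folr2), Trem2 and Gpnmb mark macrophages of scar tissue and of lipid loading, and Cd68 and Adgre1 are shared by most macrophages. All 10 were found in the table and all 10 passed the filter on low values.

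Total RNA of whole frozen liver was sequenced from 9 male C57BL/6 mice, 1 library per mouse, with 3 libraries in each of 3 groups. Mice entered at 8 weeks of age. TAA mice received thioacetamide, a hepatotoxin that is activated in the liver, at 200 mg/kg into the peritoneum every 3 days for 8 weeks, and NS mice received saline on that schedule. Livers of NS and TAA mice were collected 72 h after the final injection, whereas Recovery mice had the same thioacetamide course and were then left without injection for another 8 weeks. Recovery mice were therefore older at collection than both other groups, and no age-matched control was analysed here. All 3 groups are wild type, and no macrophage was sorted or enriched. In such bulk RNA, fewer cells of a type and less RNA per cell cannot be told apart.

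Kupffer cells are the macrophages that line the liver sinusoids, where they take up particles, bacteria and aged blood cells. They arise from fetal precursors and renew themselves locally, and after injury some are lost and monocytes from the blood enter the niche. Macrophages that accumulate at scars and at dying, lipid-filled hepatocytes carry TREM2, a lipid receptor that signals through the adaptor TYROBP, and GPNMB, a transmembrane glycoprotein of the endosome and lysosome.

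Promoter windows of 4 of the genes are shown because the resident and the scar markers move apart below, while a motif of the macrophage factor PU.1 is found in genes of both kinds. Each window is the 250 bases before the RefSeq transcription start in GRCm38.p6, 5′ to 3′ on the strand of the gene. Capitals mark GAGGAA or its complement TTCCTC.
Trem2 (chr17:48346151-48346400, plus strand): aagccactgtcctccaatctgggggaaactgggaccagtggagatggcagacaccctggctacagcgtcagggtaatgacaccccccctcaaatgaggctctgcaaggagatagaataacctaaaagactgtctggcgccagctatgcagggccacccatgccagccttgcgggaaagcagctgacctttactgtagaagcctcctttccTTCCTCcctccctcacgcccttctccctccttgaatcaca
Vsig4 (chrX:96293439-96293688, minus strand): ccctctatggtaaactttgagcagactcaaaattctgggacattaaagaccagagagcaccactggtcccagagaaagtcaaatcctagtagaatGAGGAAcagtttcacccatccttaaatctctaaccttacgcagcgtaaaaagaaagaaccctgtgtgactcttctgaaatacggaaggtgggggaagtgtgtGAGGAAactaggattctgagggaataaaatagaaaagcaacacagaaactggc
Gpnmb (chr6:49036268-49036517, plus strand): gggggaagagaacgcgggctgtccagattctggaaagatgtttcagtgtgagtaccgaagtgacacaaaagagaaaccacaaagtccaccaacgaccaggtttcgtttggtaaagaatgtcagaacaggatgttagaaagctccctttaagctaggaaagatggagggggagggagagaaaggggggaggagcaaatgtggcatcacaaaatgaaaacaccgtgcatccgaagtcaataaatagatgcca
Clec4f (chr6:83656117-83656366, minus strand): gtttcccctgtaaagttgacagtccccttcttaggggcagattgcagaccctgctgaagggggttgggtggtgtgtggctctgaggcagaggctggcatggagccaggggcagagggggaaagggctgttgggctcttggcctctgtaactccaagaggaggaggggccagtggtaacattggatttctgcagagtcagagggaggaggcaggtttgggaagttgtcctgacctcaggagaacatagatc

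GAGGAA, the core letters that PU.1 binds, was searched on both strands and was present in the windows of 5 of the 9 genes that have an entry (Marco, Cd5l, Vsig4, Cd68 and Trem2). The same letters were present in 23.3% of 32851 promoter windows of this length. Vsig4 held them at 2 places and Trem2 at 1, which began 40 bases before the start. CACGTG, the E-box read by the lysosomal factors TFEB and TFE3, and TCATGTG, the M-box read by MITF, were in none of the 9 genes, against 6.0% and 3.3% of all windows. These are matches of letters and not measured binding.

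Levels are given as scaled FPKM, which is the deposited number of fragments per unit of gene length and of library size (FPKM) divided by a factor of each library. The factors brought the median gene to the same level in all libraries, and lay at 0.827 to 0.878 in NS, 1.29 to 1.38 in TAA and 0.893 to 0.907 in Recovery. In FPKM as deposited, without these factors, the median gene was 0.63 higher (log2) in TAA than in NS and differed by -0.55 between Recovery and TAA. FPKM is per length, so levels of different genes can be set beside each other. Groups were compared with limma on log2(scaled FPKM + 0.1). A gene was called when its adjusted p was under 0.05 and its fold change at least 2, over 14094 tested genes. Library depth, estimated from the steps between low values, was 26.8 M fragments in NS 1 and 32.6 to 40.7 M in the other libraries.

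One control library, NS 1, stood apart from NS 2 and NS 3 in the very genes described here. Gpnmb was 160.1-fold and Trem2 20.7-fold higher in NS 1 than in the geometric mean of NS 2 and NS 3. Cd5l was 3.73-fold, Vsig4 3.35-fold, Marco 3.31-fold, Timd4 2.58-fold and Clec4f 2.48-fold lower. Folr2 was 1.31-fold lower, while Cd68 was 1.58-fold and Adgre1 1.14-fold higher. So in scaled FPKM NS 1 departed from NS 2 and NS 3 in the direction of the TAA livers for every member but Marco. In FPKM as deposited this did not hold for Cd5l and Folr2. There all TAA livers lay above NS 2 and NS 3, and NS 1 lay below them, at 11.3 and 3.10. Clec4f, Timd4 and Vsig4 overlapped between TAA and NS 2 and NS 3 in those values. Over all tested genes its correlation with NS 2 and NS 3 was 0.980 with each, against 0.987 between those 2 libraries. In NS 1, 39 genes were at least 4-fold above and 16 at least 4-fold below both other controls, where the other 8 libraries had 6 to 40 and 9 to 18 such genes. TAA 3 had the 40, among them skeletal muscle genes that summed to 35.1 scaled FPKM, against 0.153 to 0.426 in the rest. The summed level of 10 genes shared by macrophages was 89.0 in NS 1 and 153 and 162 in NS 2 and NS 3, and that of 7 sinusoidal endothelial genes was 51.2 against 96.4 and 91.4. Hepatocyte markers were abundant in every library, with a summed level of 22607 to 53556. The source of the NS 1 pattern was not tested, and each member's comparisons with NS are given with and without it. Counts over the companion lists include NS 1 unless stated.

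**Figure D1:**
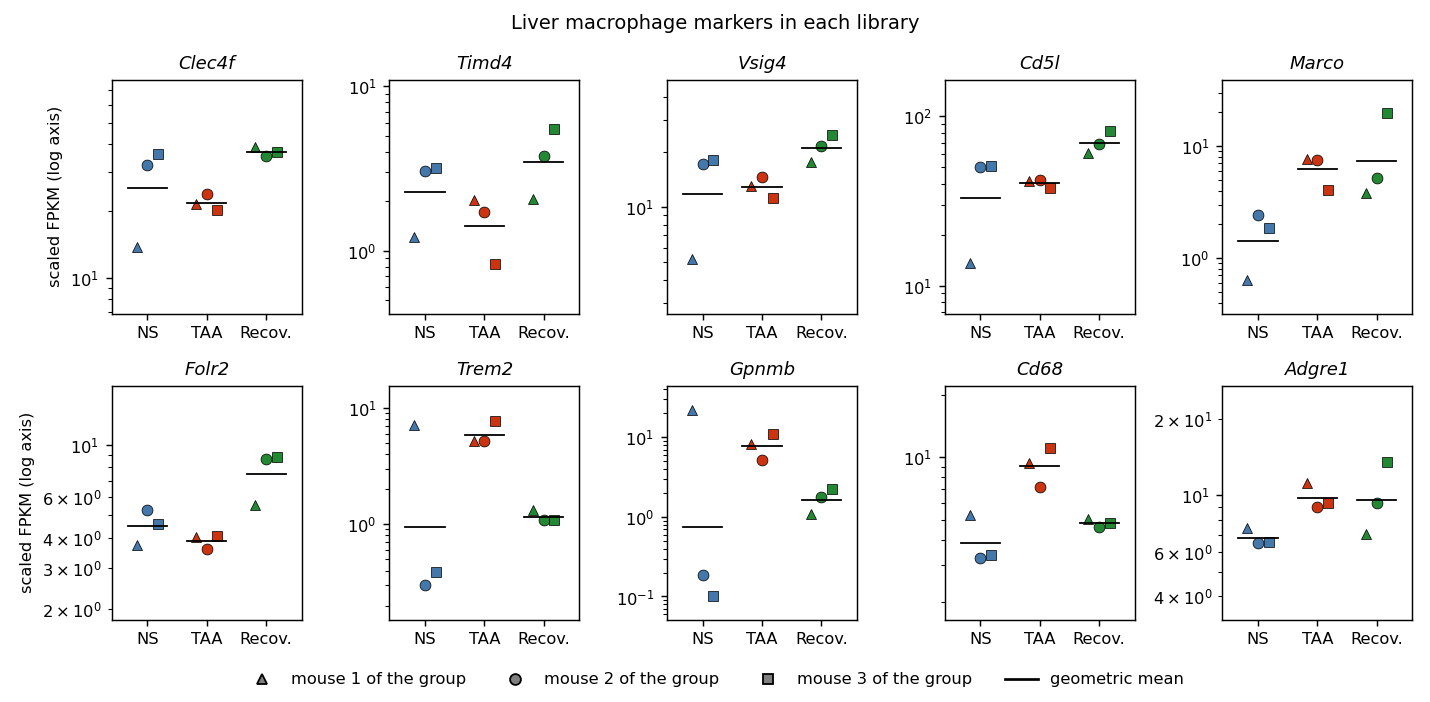
Scaled FPKM (log axis) of each of the 10 markers in NS, TAA and Recovery livers, with 1 symbol per mouse and a bar at the geometric mean. The NS 1 triangle lies below its group for Clec4f, Timd4, Vsig4, Cd5l and Marco and far above it for Trem2 (7.10) and Gpnmb (22.2).

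Of the 6 resident Kupffer markers, limma called 0 lower in TAA than in NS when all 3 controls were used (0 at an unadjusted p under 0.05), and 1, Marco, higher. In Recovery, 5 of 6 lay above TAA with an adjusted p under 0.05, and 1 of these, Timd4, also passed the 2-fold threshold. With NS 1 left out, Timd4 was called lower in TAA and Clec4f, Vsig4 and Cd5l were lower by less than 2-fold. These falls were in scaled FPKM. In FPKM as deposited, Cd5l was at 43.2 and 44.95 in NS 2 and NS 3 and higher in TAA, at 52.1 to 55.3. Vsig4 overlapped (14.6 and 15.8 against 15.4 to 19.4), as did Clec4f (27.6 and 31.8 against 27.6 to 31.5). Timd4 also overlapped, at 2.591 and 2.806 against 1.139 to 2.599. These deposited values were not tested without NS 1. The rise in Recovery was relative to the median gene: with FPKM as deposited, 0 of 6 had an adjusted p under 0.05, with differences of 0.15 to 0.70 for 5 of them and -0.32 for Marco. With all 9 libraries in 1 fit 2 of 6 passed, Timd4 and Folr2.

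Clec4f encodes a C-type lectin that marks Kupffer cells in mice. It stood at 13.8, 32.3 and 36.2 in NS 1, NS 2 and NS 3, at 21.4, 23.9 and 20.2 in TAA and at 39.0, 35.2 and 36.8 in Recovery. The 3 TAA livers lay between NS 1 and the other controls, and all 3 Recovery livers lay above all TAA livers. Against NS the difference was -0.21 (log2, SE 0.33, adjusted p = 0.616), and its sign turned with FPKM as deposited (0.42). Without NS 1 it was -0.65 (SE 0.11, adjusted p = 0.00335), a level 1.57-fold lower. Recovery exceeded TAA by 0.76 (SE 0.09, adjusted p = 4.14e-04), or 1.69-fold. NS 2, NS 3 and Recovery overlapped, and the difference between Recovery and NS was 0.55 with all controls (adjusted p = 0.393) and 0.11 without NS 1 (adjusted p = 0.513).

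Timd4 encodes TIM-4, the receptor for phosphatidylserine on dying cells that long-resident Kupffer cells carry and newly arrived ones lack. Its levels were 1.20, 3.03 and 3.19 in NS, 2.02, 1.71 and 0.827 in TAA and 2.05, 3.74 and 5.47 in Recovery. TAA and Recovery touched without overlapping, since TAA 1 was at 2.02 and Recovery 1 at 2.05. Recovery was higher by 1.23 (log2, SE 0.41, adjusted p = 0.0357), or 2.35-fold. This call was lost without TAA 2 (adjusted p = 0.0569), TAA 3 (0.116), Recovery 2 (0.0937) or Recovery 3 (0.104). TAA differed from NS by -0.64 (adjusted p = 0.245), and by -1.07 without NS 1 (SE 0.35, adjusted p = 0.0382), which is 2.10-fold lower. Recovery differed from NS by 0.59 (adjusted p = 0.496), and by 0.16 without NS 1 (adjusted p = 0.865).

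Vsig4 encodes the complement receptor CRIg, which binds bacteria coated with C3 fragments. Levels were 5.24, 17.1 and 18.0 in NS, 13.05, 14.7 and 11.2 in TAA and 17.6, 21.5 and 24.8 in Recovery. NS 2, NS 3 and all Recovery livers lay above all TAA livers, and NS 1 lay below them. Recovery exceeded TAA by 0.71 (log2, SE 0.15, adjusted p = 0.00613). TAA differed from NS by 0.13 (adjusted p = 0.821), and the sign turned without NS 1, to -0.44 (adjusted p = 0.0296). In FPKM as deposited the TAA livers overlapped NS 2 and NS 3. Recovery differed from NS by 0.84 (adjusted p = 0.336), and by 0.26 without NS 1 (adjusted p = 0.405).

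Cd5l encodes AIM, a secreted protein of tissue macrophages that supports their survival, and had the highest level of the 10 genes in every library but NS 1. It was at 13.6, 50.5 and 51.2 in NS, 41.6, 41.9 and 37.9 in TAA and 60.5, 68.4 and 82.3 in Recovery. All Recovery livers exceeded all TAA and all NS livers. Against TAA the difference was 0.79 (log2, SE 0.12, adjusted p = 0.00126). Against NS it was 1.09 (SE 0.51, adjusted p = 0.258), and 0.46 without NS 1 (adjusted p = 0.172). TAA against NS was 0.30 (adjusted p = 0.616) and turned to -0.33 without NS 1 (adjusted p = 0.0220). In FPKM as deposited all TAA livers lay above NS 2 and NS 3.

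Marco encodes a scavenger receptor for bacteria and particles and was the exception among the resident markers. Levels were 0.636, 2.40 and 1.84 in NS, 7.71, 7.57 and 4.09 in TAA and 3.83, 5.19 and 19.6 in Recovery. Every TAA and every Recovery liver lay above every NS liver, and Recovery 3 lay far above all others. In TAA the gene rose 4.12-fold over NS (log2 2.04, SE 0.46, adjusted p = 0.00722), and 2.86-fold without NS 1 (log2 1.52, adjusted p = 0.00577). Recovery and TAA overlapped, with a difference of 0.23 (95% CI -1.07 to 1.54, adjusted p = 0.752) that turned to -0.47 without Recovery 3 (adjusted p = 0.236) and to -0.06 without TAA 3 (adjusted p = 0.948). Against NS the Recovery value of 2.28 missed the threshold (SE 0.70, adjusted p = 0.132), as did 1.75 without NS 1 (adjusted p = 0.257).

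Folr2 encodes folate receptor beta. Its levels were 3.75, 5.26 and 4.61 in NS, 4.05, 3.60 and 4.07 in TAA and 5.52, 8.72 and 8.89 in Recovery. TAA overlapped NS, and all Recovery livers lay above all others. Recovery exceeded TAA by 0.93 (log2, SE 0.19, adjusted p = 0.00448), or 1.91-fold. TAA differed from NS by -0.20 (adjusted p = 0.278), and by -0.33 without NS 1 (adjusted p = 0.0706), and the sign turned with FPKM as deposited (0.42, adjusted p = 0.0442). Recovery differed from NS by 0.73 (adjusted p = 0.121), and by 0.60 without NS 1 (adjusted p = 0.249). Exons of Folr2 overlap Gm10602 on the opposite strand and the libraries are not stated to keep the strand, so reads of the 2 genes cannot be told apart.

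Trem2 and Gpnmb were lower in Recovery than in TAA and were both called, although not in a fit of all 9 libraries (adjusted p = 0.0589 and 0.238). In TAA against NS neither was called with all libraries and both were called without NS 1. With NS 1 kept, Trem2 was also called in the fit of all 9 libraries (adjusted p = 0.0417) and with FPKM as deposited (adjusted p = 0.0243).

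Trem2 levels were 7.10, 0.302 and 0.389 in NS, 5.13, 5.12 and 7.69 in TAA and 1.32, 1.08 and 1.09 in Recovery. NS 1 lay among the TAA livers, while NS 2 and NS 3 lay below all Recovery livers, which in turn lay below all TAA livers. From TAA to Recovery the gene fell by 2.25 on the log2 scale (SE 0.19, adjusted p = 6.75e-05), a level 4.75-fold lower. TAA exceeded NS by 2.41 (SE 0.999, adjusted p = 0.0756), and without NS 1 by 3.75 (SE 0.22, adjusted p = 6.62e-05), or 13.5-fold. Recovery and NS differed by 0.16 (95% CI -2.38 to 2.70, adjusted p = 0.947), and without NS 1 by 1.504 (SE 0.19, adjusted p = 0.0392), or 2.84-fold.

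Gpnmb levels were 22.2, 0.188 and 0.102 in NS, 8.17, 5.12 and 10.9 in TAA and 1.08, 1.77 and 2.23 in Recovery. The NS 1 value was the highest of all libraries and NS 2 and NS 3 were the lowest, so that the controls enclosed both other groups. The fall from TAA to Recovery was clear of overlap, with a change of -2.18 (log2, SE 0.32, adjusted p = 9.89e-04), or 4.52-fold lower. TAA against NS gave 2.84 with a wide error (SE 1.62, adjusted p = 0.174) and 5.02 without NS 1 (SE 0.33, adjusted p = 8.61e-05), or 32.4-fold. Recovery against NS gave 0.66 (adjusted p = 0.853) and, without NS 1, 2.84 (SE 0.34, adjusted p = 0.0387), or 7.16-fold. Levels in NS 2 and NS 3 rest on few reads, an estimated 37 and 19 fragments at the full exon length against 3195 in NS 1 and 1712 to 3786 in TAA. For Trem2 the estimates were 45 and 55 fragments in NS 2 and NS 3, 777 in NS 1 and 1300 to 2022 in TAA. The pseudocount of 0.1 is near the level of Gpnmb in NS 2 and NS 3 and understates those folds.

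Cd68 and Adgre1, shared by resident and recruited macrophages, were both higher in TAA than in NS, and parted in Recovery. Cd68 encodes a glycoprotein of the lysosomal membrane and Adgre1 the surface antigen F4/80.

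Cd68 was at 5.25, 3.28 and 3.36 in NS, 9.39, 7.22 and 11.1 in TAA and 5.01, 4.59 and 4.80 in Recovery. All TAA livers were above all others, and Recovery lay between NS 1 and the other controls. The gene rose 2.32-fold in TAA (log2 1.21, SE 0.22, adjusted p = 0.00285), or 2.69-fold without NS 1 (log2 1.43, adjusted p = 0.00108). In Recovery it was 1.88-fold below TAA (log2 -0.91, SE 0.16, adjusted p = 0.00215), which is short of the 2-fold threshold. Recovery differed from NS by 0.30 (adjusted p = 0.392), and by 0.52 without NS 1 (adjusted p = 0.0893).

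Adgre1 stood at 7.41, 6.47 and 6.54 in NS, 11.2, 8.98 and 9.32 in TAA and 7.02, 9.29 and 13.5 in Recovery. TAA lay above NS without overlap, by 0.52 (log2, SE 0.12, adjusted p = 0.00753), or 1.44-fold, and by 0.58 without NS 1 (adjusted p = 0.00906). Recovery spanned both groups, and its difference from TAA was -0.03 (95% CI -0.55 to 0.49, adjusted p = 0.920). From NS it differed by 0.49 (adjusted p = 0.258), and by 0.55 without NS 1 (adjusted p = 0.331).

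**Figure D2:**
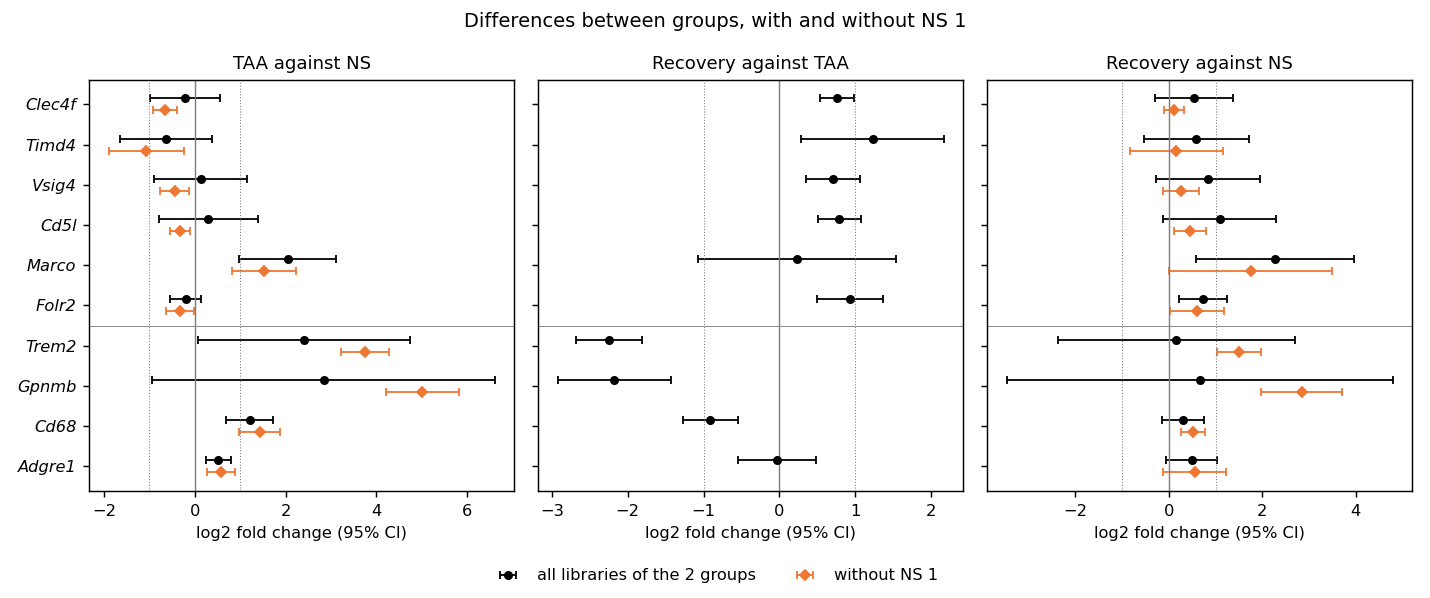
Log2 fold change of each marker in the 3 comparisons with its 95% confidence interval, with all libraries of both groups (black circles) and without NS 1 (orange diamonds); dotted lines mark a 2-fold change. In TAA against NS the Gpnmb interval runs from -0.94 to 6.62 with NS 1 and from 4.22 to 5.81 without it.

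Over the 10 markers, limma called 2 in TAA against NS, Marco and Cd68, both higher, while 25.0% of all tested genes were called in this comparison, 17.0% higher and 8.02% lower. An adjusted p under 0.05 was reached by 3 of 10 members against 54.5% of all genes, and 3 of 10 did not overlap between the groups against 63.6%. Without NS 1, limma called 5 members, with Marco, Trem2, Gpnmb and Cd68 higher (16.4% of all genes were) and Timd4 lower (8.27%). Then 9 of 10 members had an adjusted p under 0.05, against 51.8% of genes, with Folr2 as the exception.

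In Recovery against TAA, limma called 3 of 10 members, Timd4 higher and Trem2 and Gpnmb lower, beside 21.4% of all genes (7.12% higher, 14.3% lower). An adjusted p under 0.05 was reached by 8 of 10 members, against 50.5% of genes, and 8 of 10 did not overlap, against 60.3%. Among the 6 resident markers 5 were higher with such a p, a direction that 24.5% of all genes had. Their median difference was 0.77 and that of the other 4 markers -1.54, beside a median over all tested genes of -0.01 (log2 scale). This comparison does not use NS 1.

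In Recovery against NS, limma called 0 of 10 members, beside 0.993% of all genes, and 2 of 10 (Marco and Folr2) had an unadjusted p under 0.05. Cd5l, Marco and Folr2 did not overlap between the groups, 3 of 10 members against 30.2% of genes. Leaving out NS 1 gave 2 calls, Trem2 and Gpnmb, both higher in Recovery, where 0.490% of all genes were called higher. The comparisons share libraries with each other, so their counts are not independent of one another.

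The order of the group means of scaled FPKM was TAA, NS, Recovery from low to high for Clec4f, Timd4, Vsig4 and Folr2, and NS, TAA, Recovery for Cd5l and Marco. Vsig4 took the order of Cd5l and Marco when log2 levels were averaged, at 3.57 in NS and 3.70 in TAA. With the mean of NS 2 and NS 3 (50.8) in place of NS, Cd5l took the order of the first 4 genes. Within these orders Recovery and TAA differed with an adjusted p under 0.05 for all but Marco, for which TAA and NS did. The other pairs did not pass with NS 1 kept, in limma fits of the 2 groups compared. In 1 fit of all 9 libraries, Recovery and TAA differed with such a p only for Timd4 and Folr2. For Trem2, Gpnmb and Cd68 the TAA mean was highest, at 5.98 ± 1.48, 8.08 ± 2.91 and 9.23 ± 1.94 (SD, n = 3), and for Adgre1 the TAA and Recovery means of 9.84 ± 1.21 and 9.93 ± 3.29 did not differ beyond their spread. Control means had a large SD through NS 1, such as 7.49 ± 12.7 for Gpnmb and 2.60 ± 3.90 for Trem2, whereas NS 2 and NS 3 had means of 0.145 and 0.346.

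On the log2 scale, the part of the TAA change still present in Recovery was 111% for Marco and 24.9% for Cd68, the members called in TAA. Without NS 1 it was 115% for Marco, 36.3% for Cd68, 40.1% for Trem2 and 56.6% for Gpnmb. These shares use the NS and TAA libraries on both sides and carry no test.

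To set the markers against macrophage RNA at large, each was expressed as its log2 level minus the mean log2 level of 10 genes shared by macrophages (Csf1r, C1qa, C1qb, C1qc, Tyrobp, Fcer1g, Aif1, Mpeg1, Ctss and Laptm5) in the same library. On this relative scale all resident markers but Marco were lower in TAA than in NS 2, NS 3 and Recovery. Clec4f averaged 1.57 in NS 2 and NS 3, 0.18 ± 0.32 in TAA and 1.09 ± 0.31 in Recovery (SD, n = 3). The relative level of Timd4 was -1.85, -3.67 ± 0.72 and -2.28 ± 0.48 in the same order, and that of Folr2 -1.20, -2.28 ± 0.10 and -1.19 ± 0.14. For these 3 genes no TAA liver overlapped any other liver, NS 1 included (1.05 for Clec4f, -2.36 for Timd4 and -0.80 for Folr2). The 10 subtracted genes themselves rose in TAA, with a median log2 difference of 1.05 from NS. With all genes scaled to them, the median of all tested genes was -0.94, so most genes fell on such a scale. The share of all genes without overlap on it was not computed. Vsig4 went from 0.61 through -0.58 ± 0.38 to 0.28 ± 0.10, and Cd5l from 2.14 through 1.06 ± 0.25 to 2.003 ± 0.15. NS 1 lay among the TAA livers for both of these, at -0.33 and 1.04.

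Trem2 and Gpnmb moved the other way on the relative scale. Trem2 averaged -4.70 in NS 2 and NS 3, -1.70 ± 0.30 in TAA and -3.79 ± 0.40 in Recovery, and Gpnmb -5.58, -1.31 ± 0.37 and -3.34 ± 0.28. In NS 1 they stood at 0.10 and 1.73, above every other library. Cd68 was at -1.76, -1.08 ± 0.15 and -1.83 ± 0.30, and Adgre1 at -0.81, -0.97 ± 0.15 and -0.85 ± 0.30, where the TAA and Recovery livers overlapped. Scaling all genes to these 10 genes, in place of the median gene, changed the calls in TAA against NS to 6, with Marco, Trem2 and Gpnmb higher and Clec4f (-1.21), Timd4 (-1.58) and Folr2 (-1.18) lower. Under that scaling 7628 of all 14094 tested genes were called, 1104 of them higher and 6524 lower, and the median gene was at -0.94. The count of 6 and the falls of Clec4f and Folr2 thus lay near the background. Timd4 fell further, and higher calls were a smaller share of all genes than of the members.

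The ratio of Trem2 to Clec4f put the pattern of the livers into 1 value each. It was 0.515 in NS 1 and 0.00936 and 0.0108 in NS 2 and NS 3. In TAA it was 0.240, 0.215 and 0.380, and in Recovery 0.0339, 0.0307 and 0.0296. Recovery livers were alike in this ratio, below all TAA livers and above NS 2 and NS 3, and NS 1 was above all.

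**Figure D3:**
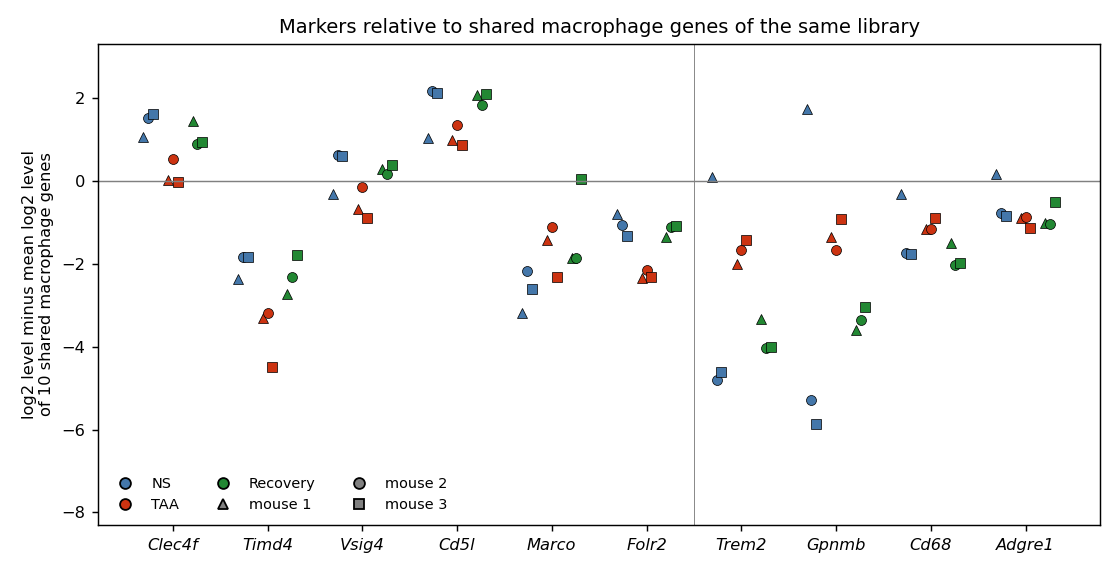
Log2 level of each marker minus the mean log2 level of 10 shared macrophage genes in the same library, by group (colour) and mouse (symbol). TAA points (red) lie lowest for Clec4f, Timd4 and Folr2, and NS 1 (blue triangle) lies highest for Trem2 (0.10) and Gpnmb (1.73).

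By correlation of log2 levels across the 9 livers, resident markers other than Marco ran with each other and against Trem2 and Gpnmb. The weakest of these values were 0.70 (Clec4f with Folr2) and -0.36 (Folr2 with Gpnmb). They are given as a description since the libraries share groups and NS 1. Vsig4 and Cd5l ran together (r = 0.99), as did Clec4f with Vsig4 (0.93) and Trem2 with Gpnmb (0.96). Clec4f ran against Trem2 (-0.83) and Gpnmb (-0.82). Marco stood at 0.43 (Clec4f) to 0.73 (Cd5l) to the other resident markers, whose own pairs had 0.70 to 0.99. It stood at -0.01 to Trem2, 0.03 to Gpnmb and 0.81 to Adgre1. Adgre1 stood at -0.05 to Clec4f, 0.31 to Cd5l, 0.37 to Trem2 and 0.48 to Gpnmb.

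Among the 11101 genes whose mean FPKM reached 1, those with the pattern nearest to Clec4f over the 9 libraries were Galt (r = 0.96), Cd300ld (0.96), Flt1 (0.95), Ctsc (0.94) and Nsa2 (0.94). Nearest to Timd4 were Adgre4 (0.96), a receptor of the family of F4/80, Acacb (0.94), Cryzl1 (0.93), Sh3glb1 (0.93) and Trim39 (0.93). For Trem2 they were Hist2h2bb (0.995), Trp53bp1 (0.97), Hist1h4k (0.97), Hist1h4n (0.97) and Trim46 (0.96), and for Gpnmb Atp6v1d (0.97), a subunit of the proton pump of lysosomes, Hist1h4k (0.96), Trem2 (0.96), Hist2h2bb (0.96) and Dennd4b (0.95). Histone genes have near-identical copies and their counts are uncertain, and Hist2h2bb, Hist1h4k and Hist1h4n were among the 39 genes high in NS 1.

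Companion genes of each kind were described by counts of calls. Over all tested genes, 17.0% were called higher and 8.02% lower in TAA than in NS. In Recovery against TAA these shares were 7.12% and 14.3%. A count near such a share does not set its list apart from other genes. Of the 10 genes shared by macrophages, 6 were called higher in TAA (C1qb 1.19, Laptm5 1.18, Aif1 1.16 and Ctss 1.16, log2 differences) and 0 lower. Their median difference was 1.05, beside 0.02 over all genes. Without NS 1 only Ctss was called, and the median was 0.77. An adjusted p under 0.05 was reached by 9 of the 10 with and without NS 1, beside 54.5% and 51.8% of all genes. The calls lost without NS 1 thus fell short of the 2-fold threshold. From TAA to Recovery limma called 0 of the 10, with 3 at an unadjusted p under 0.05. Their summed level was 224 to 289 in TAA and 199 to 255 in Recovery.

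Other lipid-associated or scar genes were mostly higher in TAA than in both other groups. Of 12 such genes, 9 rose in TAA and 10 fell in Recovery, with medians of 2.21 and -1.85 (log2). Without NS 1, 10 rose in TAA, Capg being added. Cd63, a tetraspanin of endosomes, went from 1.52 to 2.27 in NS through 62.3 to 67.4 in TAA to 2.08 to 4.50 in Recovery. Spp1, osteopontin, went from 13.8 to 18.0 through 274 to 415 to 23.6 to 31.7. Mmp12, the macrophage elastase, stood at 0.460, 0.0621 and 0.0916 in NS and at 3.65 to 4.70 in TAA (log2 difference 4.02, adjusted p = 2.31e-04). Fabp5, a fatty acid carrier, rose by 3.70 (adjusted p = 4.81e-05) and fell by 3.20 in Recovery (adjusted p = 4.57e-05). In NS 1 Capg (7.93 against 1.57 and 1.23), Lgals3 (9.36 against 3.75 and 3.91), Itgax (0.811 against 0.295 and 0.151) and Mmp12 were higher than in NS 2 and NS 3, while Spp1, Cd63, Cd9 and Fabp5 were not, and these genes were picked after their values were seen. Spp1 is also on the list of bile duct genes, and several of these genes are made by other liver cells too.

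Other resident Kupffer genes were split. Of 10, C6 and Cd163 fell in TAA and Id3 rose, and C6 and Cd163 were called higher in Recovery than in TAA. Cd163, the scavenger receptor for haemoglobin, was at 2.67, 7.85 and 8.49 in NS, 1.79, 2.79 and 2.03 in TAA and 3.56, 6.30 and 8.73 in Recovery, so that NS 1 lay within the range of TAA. C6, a complement component that hepatocytes also make, was at 86.3 to 102 in NS, 20.6 to 32.3 in TAA and 79.7 to 103 in Recovery. Id3, a regulator of Kupffer cell identity that other cells share, was at 9.73 to 19.3, 36.5 to 39.6 and 21.5 to 29.8.

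Partners of TREM2 moved less than the receptor. Of 9 genes, Plcg2, a phospholipase downstream of the receptor, rose in TAA by 1.23 (log2, adjusted p = 3.34e-04) and Apoe, a lipid carrier and ligand that hepatocytes make in bulk, fell by 1.104 (adjusted p = 3.53e-04). Another 5 had an adjusted p under 0.05 with under 2-fold change, among them Tyrobp (0.95) and the sheddase Adam10 (0.79). In Recovery against TAA 0 were called by limma, with 6 at an unadjusted p under 0.05. Apoe in Recovery was 622 in Recovery 3 against 1736 and 2288 in the other mice.

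Of 10 monocyte genes, 6 were called higher in TAA than in NS and 6 lower in Recovery than in TAA. Ccr2, the receptor that draws monocytes from the marrow, was at 0.432 to 0.640 in NS, 3.61 to 4.12 in TAA and 0.438 to 0.755 in Recovery, and NS 1 held the 0.640. Vcan rose by 2.62 (adjusted p = 1.36e-04), Chil3 by 2.17 (adjusted p = 0.00195) and Plac8 by 2.13 (adjusted p = 3.20e-05). The summed level of the list was 345 to 410 in NS and 272 to 313 in TAA, of which Fn1, which hepatocytes make, held 246 to 404.

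**Figure D4:**
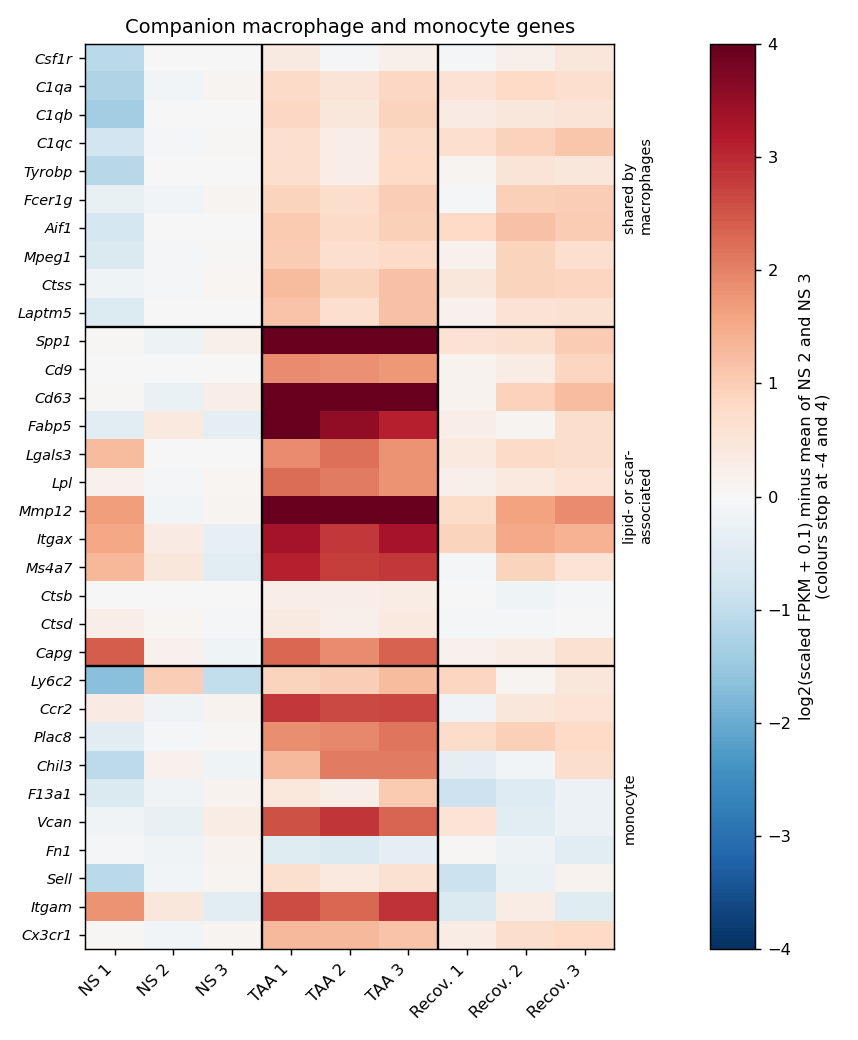
Heat map of companion genes shared by macrophages, lipid- or scar-associated and monocyte genes, as log2(scaled FPKM + 0.1) minus the mean of NS 2 and NS 3 (colours stop at -4 and 4), with 1 column per mouse. TAA columns are red for Spp1, Cd63, Fabp5, Mmp12, Ccr2 and Vcan, and the NS 1 column is red for Capg, Itgam, Mmp12 and Itgax but blue for most shared macrophage genes.

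Receptors for uptake of cells and particles had 4 of 11 called higher in TAA and 0 lower, beside 17.0% and 8.02% of all genes. Clec7a, the beta-glucan receptor, rose by 2.32 (log2, adjusted p = 0.00287), Gas6, the ligand of the receptors AXL and MERTK, by 1.70 (adjusted p = 2.32e-04), Axl by 1.16 (adjusted p = 0.00124) and Fcgr1 by 1.02 (adjusted p = 0.0194). Without NS 1 Axl was not called (0.96) and Cd36, a fatty acid scavenger receptor, was (1.12), which again gave 4. In Recovery Clec7a and Gas6 were called lower than in TAA.

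Markers of other cells also moved with the groups, and their part in the marker levels was not tested. Of 5 bile duct genes 5 rose in TAA, with a summed level of 15.7 to 20.9 in NS, 295 to 442 in TAA and 27.9 to 38.4 in Recovery. Of 7 stellate cell and myofibroblast genes 5 rose (72.3 to 124, 210.0 to 269 and 101 to 135), with Col1a1 at 0.995 to 1.04 in NS and 49.3 to 78.2 in TAA. Of 7 hepatocyte genes 4 fell, with Cyp2e1 at 4157 to 4745 in NS and 309 to 398 in TAA. All 3 tested neutrophil genes rose (0.877 to 4.24, 14.3 to 20.2 and 3.13 to 5.05), with Ly6g at 0 in all NS and Recovery livers. Of 5 tested dendritic cell genes 3 rose, with sums of 3.85 to 4.42 in NS and 5.10 to 5.64 in TAA, and of 7 T and NK cell genes 1, Cd8a, rose (1.59 to 2.50 and 3.02 to 3.92). For 7 sinusoidal endothelial genes and 4 tested B cell genes limma called 0 in TAA against NS, with 1 of each at an unadjusted p under 0.05. All 7 endothelial genes were lower in TAA when NS 1 was left out, 4 with an adjusted p under 0.05 and 0 called. In Recovery all 7 lay above TAA, 5 with an adjusted p under 0.05 and 0 called. Their median difference there was 0.56 (log2). Without NS 1, 2 of the 3 neutrophil genes, 2 of the 5 dendritic cell genes and 0 of the 7 T and NK cell genes were called by limma in TAA (3 of the latter at an unadjusted p under 0.05). Of 3 tested erythroid genes Alas2 fell, and 0 of 5 skeletal muscle genes were called, with 0 at an unadjusted p under 0.05. In Recovery against NS, limma called 0 genes of these and of the macrophage lists except Epcam of the bile duct list. Epcam was higher by 1.65 (adjusted p = 0.0310, and 0.0546 without NS 1). From 0 to 8 genes of a list had an unadjusted p under 0.05. The 8 were among the 10 genes shared by macrophages, all of which were higher in Recovery. Their median difference was 0.78, and 0.61 without NS 1, where 8 again had such a p. Of the 10, only Ctss had an adjusted p under 0.05 (0.0439, and 0.0999 without NS 1). The 10 genes summed to 199 to 255 in Recovery and 89.0 to 162 in NS.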

How the data were processed

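The authors sequenced liver RNA as 150 bp read pairs with a kit not stated to keep the strand, aligned the reads to mm10 (GRCm38) with HISAT2 2.2.1, counted fragments per gene with featureCounts 1.5.0-p3 and deposited FPKM. Whole counts came back for only 50.9% to 59.9% of low values (within 0.08 of a whole number), so no count test was run, and errors are the spread between mice.

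Each library's FPKM were scaled by a median-of-ratios factor, 0.1 was added and log2 taken. Genes whose mean FPKM reached 0.1 were tested in R 4.3.3 by limma 3.58.1, using lmFit and then eBayes with its trend option, on the 6 libraries of a comparison. P values were adjusted by Benjamini-Hochberg over all 14094 tested genes. The steps were tested on simulated data. Tables were made with Python 3.11.15 (pandas 2.3.3, numpy 2.4.6).

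The members and the 19 companion lists were chosen with earlier results of these data known. All members are named, with up to 4 called genes of a list that had the largest change in TAA against NS and no overlap, and the 5 genes most like each of 4 members. Other genes (Cd163, Cd36, Capg, Lgals3, Itgax, Itgam, Cd9, Tyrobp, Adam10, Fn1 and Ly6g) were picked after their values were seen. Loci were the same as in GENCODE M21, and the 10 loci on mm10 are Clec4f at chr6:83644542-83656187, Timd4 at chr11:46810800-46844332, Vsig4 at chrX:96247203-96293438, Cd5l at chr3:87357881-87371073, Marco at chr1:120474538-120505024, Folr2 at chr7:101839988-101857194, Trem2 at chr17:48346401-48354147, Gpnmb at chr6:49036546-49070929, Cd68 at chr11:69664213-69666153 and Adgre1 at chr17:57358691-57483527. Promoter windows came from the RefSeq table for GRCm38.p6, in which 9 of the 10 members matched. The alternatives changed the pseudocount, the filter, the scaling, the libraries in the fit, the variance trend, the replicate block, the threshold (limma treat) and each library in turn. The small RNA data were not analysed here. Gene Ighm of the B cell list had no row under that symbol.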

Additional observations from a re-analysis of the deposited data

How the results depend on the processing

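Calls in TAA against NS numbered 2 members and became 4 with FPKM as deposited (Trem2 3.01 and Adgre1 1.15 added, while the median of all genes moved to 0.63 and the share of higher calls from 67.9% to 91.2%), 3 with all 9 libraries in 1 fit (Trem2 added, adjusted p = 0.0417), 6 with scaling to the shared macrophage genes (median of all genes -0.94, 14.5% of calls higher) and 0 with limma treat against a 2-fold change (1 at an unadjusted p under 0.05), and 2 to 5 when each library was left out, the 5 being without NS 1. Quantile normalization moved the share of higher calls to 55.7%. In Recovery against TAA the 3 calls became 1 with all 9 libraries in 1 fit (adjusted p = 0.0589 for Trem2 and 0.238 for Gpnmb, a fit whose spread includes NS 1) and 2 to 4 with a library left out. In Recovery against NS the 0 calls became 0 to 2, the 2 being without NS 1. Over all genes the 3520 calls in TAA against NS became 1780 with a pseudocount of 1, 2204 where the mean FPKM had to reach 1, 7628 with the shared macrophage genes and 1441 with treat, and the 3017 in Recovery against TAA became 1460, 1895, 3008 and 1084, with 33.2% of calls higher in this comparison, 9.89% with FPKM as deposited and 44.9% with quantile normalization. The 140 calls in Recovery against NS (58.6% higher) became 0 with treat, 17 to 85 with a pseudocount of 1, no filter, no trend or the block, 235 with all 9 libraries and 2480 with the shared macrophage genes (1.05% higher), and FPKM as deposited gave 69.3% higher. The sign turned for 30 values of single genes. In TAA against NS it turned with FPKM as deposited for Clec4f (0.42) and Folr2 (0.42), with quantile normalization for Clec4f (0.13), with scaling to the shared macrophage genes for Vsig4 (-0.86), Cd5l (-0.70) and Adgre1 (-0.47), and with a library left out for Clec4f (-0.65 to 0.045, positive without NS 3), Vsig4 (-0.44 to 0.44) and Cd5l (-0.33 to 0.62, both negative without NS 1). In Recovery against TAA it turned for Marco with FPKM as deposited (-0.32) and without Recovery 3 or TAA 3 (-0.47 to 0.69 over the libraries left out), and for Adgre1 with TMM factors (0.024), with the shared macrophage genes (0.11) and without TAA 1 or Recovery 1 (-0.28 to 0.19). In Recovery against NS it turned with a pseudocount of 1 for Trem2 (-0.18) and Gpnmb (-0.23), with the shared macrophage genes for Clec4f (-0.30), Timd4 (-0.23), Vsig4 (-0.0087), Folr2 (-0.11), Trem2 (-0.61), Gpnmb (-0.083), Cd68 (-0.53) and Adgre1 (-0.35), and without NS 2 or NS 3 for Trem2 (-0.58 to 1.504 over the libraries left out) and Gpnmb (-0.55 to 2.84). The cause of these turns was not tested. The share of the Cd68 change left ran from 16.9% to 36.3% and that of Marco from 77.1% to 134%. Timd4 passed in Recovery against TAA under 8 of 18 alternatives. Without C1qa, C1qb and C1qc in the shared list, Clec4f averaged 1.97 in NS 2 and NS 3, 0.54 in TAA and 1.52 in Recovery.

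With the replicate block, 2, 2 and 0 members were called in the 3 comparisons, Timd4 being lost in Recovery against TAA (adjusted p = 0.0687), and calls over all genes in Recovery against NS went from 140 to 17. Samples share only a number: correlations of same-numbered libraries were -0.07 to 0.12, and not every library correlated best with its own number.

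With 3 mice per group, a lone deviating control widened the error of Trem2 and Gpnmb most (SE 0.999 and 1.62). Their levels in NS 2 and NS 3 rest on under 60 estimated fragments.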

Other observations

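Over 15 listed genes of the lysosome, where the products of Gpnmb and Cd68 lie, the median difference between TAA and NS was 0.10 on the log2 scale. Ctsk, a collagen-cleaving cathepsin, went from 0.432 to 0.526 in NS to 1.24 to 3.21 in TAA (log2 difference 1.96, adjusted p = 0.00154). Lamp2, a membrane protein of the lysosome made by all cells, fell by 1.16 (adjusted p = 2.88e-04). In Recovery 3 of the 15 were called lower than in TAA, beside 14.3% of all genes.

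Among transcription factors of macrophages, Cebpa and Rxra fell in TAA by 1.48 and 1.25 (adjusted p = 7.31e-05 and 2.61e-05) and Id3 rose by 1.39. Cebpa and Rxra are abundant in hepatocytes too, whose 4 called marker genes also fell. Of 10 growth factors and signals of the macrophage niche, Csf2 was listed at 0 in all 9 libraries and limma called 0 of the other 9, with 6 at an adjusted p under 0.05 and under 2-fold change.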
